A study of Mus musculus with 2 samples.

Results

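Antioxidant and Nrf2-linked genes were described in liver RNA of a control and an irradiated C57BL/6 sample, with 1 array each. The set was a fixed list of 43 genes of glutathione, thioredoxin and peroxide metabolism, NADPH supply and metal binding, with the regulators Nfe2l2 and Keap1. A probe set annotated with exactly 1 gene symbol was found for 38 of them, among 22180 genes in all, and where a gene had several the one with the highest mean of both arrays was used. Both samples came from male mice of the inbred strain C57BL/6 aged 9 weeks. The irradiated group received 6 Gy of gamma rays to the whole body at 0.81 Gy per min, in a single exposure at 4 weeks of age. It was sampled 5 weeks later, and the control group received none. The labels name no genetic change in either group and do not say whether an RNA came from 1 mouse or several, or whether the control was anesthetized as the irradiated mice were. There was no replicate, so no difference below has a test or an error, and the number of arrays limits the precision.

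The transcription factor Nrf2, encoded by Nfe2l2, is held in the cytoplasm and marked for degradation by Keap1. Oxidants and electrophiles modify Keap1, after which Nrf2 enters the nucleus, pairs with small Maf proteins and binds antioxidant response elements near its target genes. Those targets make glutathione, reduce thioredoxin and supply NADPH, and the liver, which detoxifies reactive compounds, expresses many of them. Superoxide dismutases, catalase, peroxiredoxins and glutathione peroxidases remove superoxide and peroxides.

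Promoter sequence of 6 members is shown because their values carry the contrasts described below. Gclm and Txnrd1 are classical Nrf2 targets, Mt2 and Mt1 are paired metallothionein genes with unequal differences, and Txnip and Osgin1 had the lowest differences of the list. Each line gives the 150 bases before the annotated start, 5′ to 3′ on the gene's strand, from RefSeq on GRCm38.p6. Capitals mark the antioxidant response element core TGACNNNGC, the metal response element core TGCACNC or TGCGCNC, and the tandem E box known by the name carbohydrate response element, each on either strand.
Gclm, chr3:122245407-122245556, plus strand: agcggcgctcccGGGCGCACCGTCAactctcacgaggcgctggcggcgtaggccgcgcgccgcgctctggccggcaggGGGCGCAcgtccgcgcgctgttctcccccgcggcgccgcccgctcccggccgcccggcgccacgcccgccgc
Txnrd1, chr10:82859056-82859205, plus strand: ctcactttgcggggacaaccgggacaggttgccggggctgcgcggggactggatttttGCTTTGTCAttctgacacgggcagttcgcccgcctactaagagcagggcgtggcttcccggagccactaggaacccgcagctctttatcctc
Mt2, chr8:94172468-94172617, plus strand: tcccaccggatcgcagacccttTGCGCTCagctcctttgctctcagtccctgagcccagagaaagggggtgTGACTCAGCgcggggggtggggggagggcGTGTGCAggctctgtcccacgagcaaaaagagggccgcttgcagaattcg
Mt1, chr8:94178939-94179088, plus strand: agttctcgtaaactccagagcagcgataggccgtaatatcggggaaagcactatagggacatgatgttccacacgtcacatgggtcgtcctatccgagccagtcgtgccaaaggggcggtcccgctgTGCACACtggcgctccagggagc
Txnip, chr3:96557807-96557956, plus strand: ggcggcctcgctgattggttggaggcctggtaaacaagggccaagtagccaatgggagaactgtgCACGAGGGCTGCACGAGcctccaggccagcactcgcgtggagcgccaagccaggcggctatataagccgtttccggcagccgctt
Osgin1, chr8:119436997-119437146, plus strand: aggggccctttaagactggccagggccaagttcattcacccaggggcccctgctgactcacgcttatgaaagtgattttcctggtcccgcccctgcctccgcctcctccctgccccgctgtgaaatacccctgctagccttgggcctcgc
In Gclm the antioxidant core, at positions -134 to -126 from the start, overlaps a metal core at -138 to -132, so that they form 1 run of capitals. The table has 3 windows for Txnrd1. The 1 shown was chosen because it holds the antioxidant core, at -92 to -84, and the others do not. In Mt2 the antioxidant core lies at -79 to -71, where metal cores flank it. The Txnip run, at -85 to -69, is the tandem E box, and Osgin1 has no capitals, which says only that these letters are not in this stretch.

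All levels below are on the log2 scale of the deposited RMA values, and a difference is the irradiated level minus the control level. The floor was set at 6.06, the median over every value of the table, and a gene counted as above it if either array reached it. This floor is a rank and not a measured background. Of the 38 measured members 37 were above the floor, all of them on both arrays, and Gpx2 was below it on both. The 37 members split evenly, with 18 above 0, 18 below and Gpx4 at 0. Their median difference was 0.00, against -0.00 over the 13689 genes above the floor. Of those genes 48.5% were above 0, the share to set beside the counts above 0 that follow. At a size of 1.2-fold, 2 members were higher (Gclc and Mt2) and 3 were lower (Osgin1, Txnip and Glrx3). Among all genes above the floor 7.2% were that much higher and 6.54% that much lower, 13.7% in either direction, and the 5 members made up 13.5% of the 37. The share of members past 1.2-fold thus lay close to that of genes in general. At 1.5-fold the list held 0 higher members and 1 lower member, where 1.14% and 0.65% of all genes were called. None reached 2-fold, where 0.321% of all genes were higher and 0.183% lower. Differences smaller than 0.1 were found for 21 members, 56.8%, against 47.8% of all genes above the floor.

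**Figure D1:**
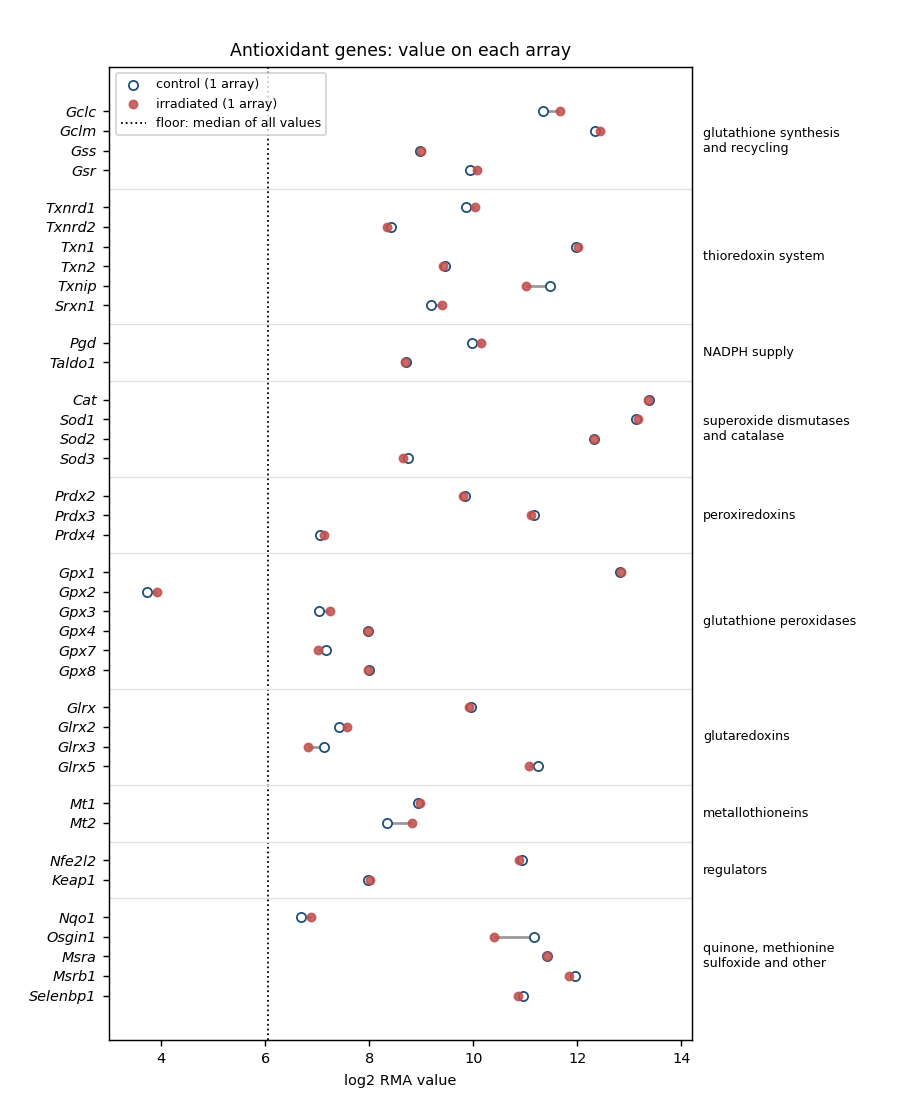
Log2 RMA value of each measured member for the control (open circles) and irradiated (filled circles) samples, grouped by role, with the floor of 6.06 dotted; levels of different genes come from different probes and are not comparable. The longest connecting line belongs to Osgin1, at 11.18 in the control and 10.41 after irradiation.

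Osgin1, which encodes an oxidative stress induced growth inhibitor, had the largest difference of the list in either direction. Its level was 11.18 in the control and 10.41 after irradiation. The difference of -0.77 made it 1.71-fold lower, and 0.336% of the genes above the floor had a lower difference. It was the only member past 1.5-fold. Txnip, whose product binds thioredoxin and restrains its activity, read 11.47 in the control and 11.01 after irradiation. It was 1.38-fold lower, a difference of -0.47, and 1.25% of genes lay below it. A further probe set annotated with both Txnip and Gm15441 read 6.64 in the control and 6.34 after irradiation, a difference of -0.30. That difference lay on the same side of 0, but the probe set is shared and read close to the floor, so it bears little on Txnip.

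Mt2 stood at the other end. Metallothioneins are small cysteine-rich proteins that bind zinc and copper and scavenge oxidants. Mt2 read 8.33 in the control and 8.83 after irradiation, 1.41-fold higher at a difference of 0.50, and 98.3% of genes had a lower difference. Mt1, its neighbour in the genome and its close relative, read 8.95 and 8.97, a difference of 0.02. The members of this pair were therefore unlike, and probes of such similar genes can cross-hybridise, which was not tested. The central 95% of genes above the floor lay between -0.37 and 0.42, and Osgin1, Txnip and Mt2 were the 3 members outside it.

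All 4 genes of glutathione synthesis and recycling were above 0, with a median of 0.12, and 1 of the 4 passed 1.2-fold. Of all genes above the floor, 48.5% were above 0 and 7.2% were at least 1.2-fold higher. Gclc, the catalytic subunit of glutamate-cysteine ligase and the rate-limiting enzyme of glutathione synthesis, read 11.35 and 11.67. It was 1.25-fold higher (0.33), and 95.4% of genes had a lower difference. Gclm, the regulatory subunit of the same ligase, read 12.34 and 12.44, a difference of 0.10. Gsr, which returns oxidised glutathione to its reduced form, read 9.94 and 10.07, a difference of 0.13. Gss, which adds the last amino acid of glutathione, differed by 0.02. The catalytic subunit thus differed by more than its partner, though Gclm also lay above the median of all genes.

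The thioredoxin system was split, with 3 of 6 members above 0 and 3 below. Srxn1, the sulfiredoxin that repairs overoxidised peroxiredoxins, read 9.18 and 9.39, a difference of 0.21. Txnrd1, the cytosolic thioredoxin reductase, read 9.86 and 10.04, a difference of 0.18. Neither reached 1.2-fold. Thioredoxin itself hardly differed, at 0.04 for cytosolic Txn1 and -0.04 for mitochondrial Txn2. Txnrd2, the mitochondrial reductase, differed by -0.08. The lowest of the group was Txnip, given above, which is the inhibitor of the system and not one of its enzymes.

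NADPH, the reducing power behind both systems, comes largely from the pentose phosphate pathway. Pgd, which makes NADPH in that pathway, read 9.97 and 10.16, a difference of 0.18. Taldo1, an enzyme of its later reactions, differed by -0.03. G6pdx, the first enzyme, was not analysed here. Tkt had a probe set shared with Mir3076, outside the rule for members, which read 8.02 and 8.13.

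The enzymes that remove superoxide and peroxide directly differed little. Among the superoxide dismutases and catalase 0 of 4 passed 1.2-fold, and their differences ran from -0.10 to 0.05. Cat, which breaks down hydrogen peroxide in peroxisomes, read 13.39 and 13.37. Sod1, the cytosolic copper and zinc dismutase, read 13.12 and 13.17, and Sod2, the mitochondrial manganese enzyme, differed by 0.01. Sod3, the secreted dismutase, had the largest difference of the 4, from 8.75 to 8.65. The highest value in the table was 13.9, so the readings of Cat and Sod1 lay near the top of the range, and whether signal there was compressed was not tested.

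Peroxiredoxins reduce peroxides with electrons from thioredoxin. Of the 6 listed, 3 were measured, and their differences were -0.04 for Prdx2, -0.06 for Prdx3 and 0.08 for Prdx4. Prdx4, which acts in the endoplasmic reticulum, had the largest of these, from 7.06 to 7.14. Prdx1 had only probe sets shared with other symbols, of which the brightest, annotated with Gm21399 as well, differed by 0.09. Prdx5 and Prdx6 were not analysed here. No measured peroxiredoxin therefore came near 1.2-fold.

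Glutathione peroxidases use glutathione for the same reaction, and 0 of the 5 above the floor passed 1.2-fold. Gpx3, which is secreted into plasma, read 7.03 and 7.25. Its difference of 0.23 came closest to 1.2-fold without reaching it, and Glrx3 at -0.31 was the nearest member past it. Gpx1, the main cytosolic form in liver, read 12.83 and 12.84. Gpx4, which reduces lipid peroxides in membranes, had the same value of 7.97 on both arrays and was 1 of 156 genes above the floor with identical values. Of the forms that work in the endoplasmic reticulum, Gpx7 was at -0.16 and Gpx8 at -0.00. Gpx2, a form of gut epithelium, read 3.72 and 3.92, both below the floor.

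Among the glutaredoxins 3 of 4 were below 0, with a median of -0.11. Glrx3, which carries iron-sulfur clusters in the cytosol, read 7.13 and 6.82, 1.24-fold lower at -0.31. A probe set annotated with both Glrx3 and Gm12669 read 6.24 and 6.23, just above the floor, so it bears little on Glrx3. Glrx5, the mitochondrial cluster carrier, differed by -0.17, and by -0.04 in its other probe set. Glrx2 was at 0.15 and Glrx, the cytosolic form, at -0.04.

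The regulators themselves were near 0. Nfe2l2 read 10.94 in the control and 10.89 after irradiation, a difference of -0.05. Keap1 read 7.98 and 8.01, a difference of 0.03, while its dimmer probe set read 6.20 and 6.04, the latter below the floor. Nrf2 is controlled mainly through protein stability, which an RNA array does not measure. Nqo1, a quinone reductase and the most used reporter of Nrf2 activity, read 6.69 and 6.87, a difference of 0.18 that did not reach 1.2-fold. Msra and Msrb1, which repair oxidised methionine, were at -0.02 and -0.10, and Selenbp1, a selenium-binding methanethiol oxidase, was at -0.09.

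**Figure D2:**
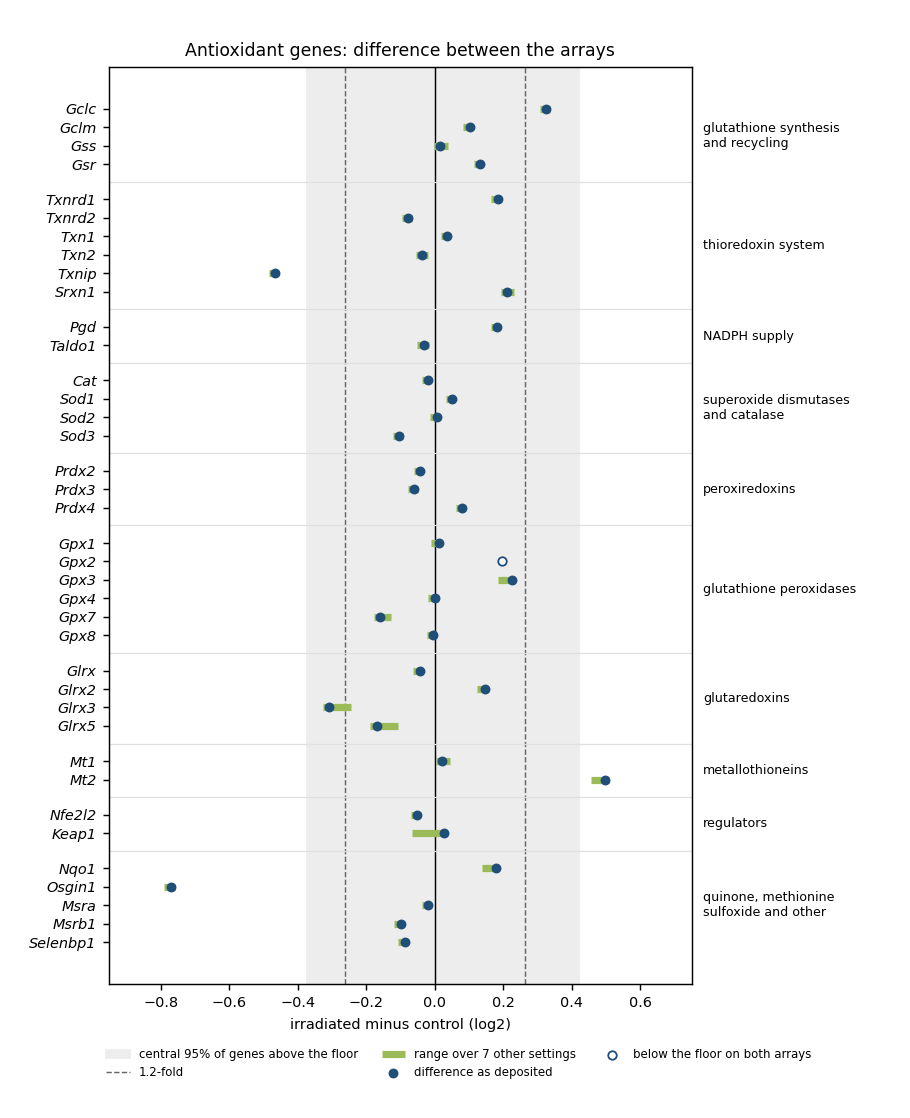
Difference between the arrays (log2) for each measured member, grouped by role: points are the differences as deposited, thick bars the range over 7 other settings of scaling, probe set choice and value handling, dashed lines 1.2-fold, and the shaded band the central 95% of genes above the floor (-0.37 to 0.42). Osgin1 and Txnip lie left of the band and Mt2 right of it, and the other members above the floor lie inside.

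The antioxidant response element core TGACNNNGC was searched on both strands in the RefSeq windows running from 250 bases before to 50 bases after each annotated start. Of all 32851 windows 12.4% held it. The table had windows for 38 of the 43 members, and 9 of these members had the core, 18.8% of the members' 48 windows. The 9 were Nfe2l2, Srxn1, Gclm, Prdx1, Pgd, Mt2, Txnrd1, Sod1 and G6pdx. The 7 of them above the floor had differences from -0.05 for Nfe2l2 to 0.50 for Mt2, with a median of 0.18 and 6 above 0. The 26 members without it had a median of -0.03, and 10 of them were above 0. Gclc (0.33), Gsr (0.13), Sod3, Msra and Prdx6 had no window in the table and are in neither class. Over all genes above the floor the corresponding medians were 0.00 with the core (1785 genes) and -0.00 without it (8973 genes). Above 0 were 48.9% of the genes with the core and 48.0% of those without it. At 1.2-fold, 1 member with the core was higher and 0 lower, and without it 0 were higher and 3 lower. Among all genes 127 were higher and 112 lower with the core, and 593 and 544 without it. These are descriptions of 1 pair of arrays with no test. A match is not a known binding site, and elements farther from the start are outside the window. The metal core was in 25.7% of all windows and 29.2% of the members' windows, in 13 members, among them both Mt1 and Mt2. Members above the floor with it had a median of -0.01 (12 genes), and those without it 0.00 (21 genes). The tandem E box was in 16 windows of the whole table, and Txnip was the only member with it.

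**Figure D3:**
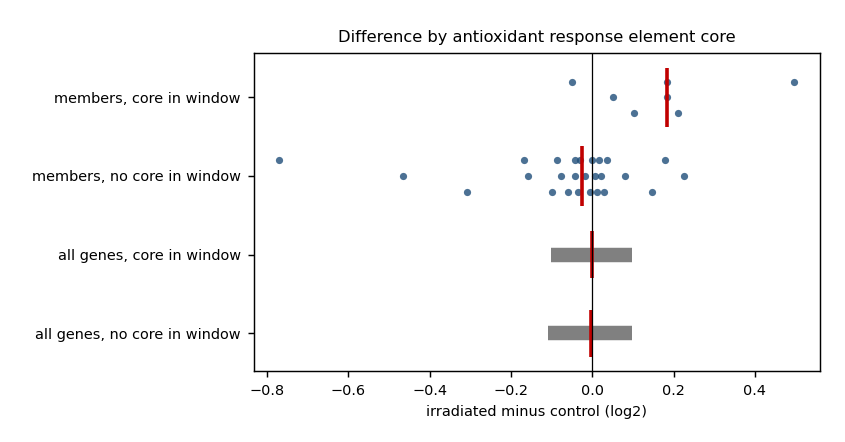
Difference between the arrays (log2) for members above the floor with and without the antioxidant response element core in the promoter window (points), and the 25th to 75th percentile of all genes above the floor in the same classes (grey bars), with medians as red lines. The member medians are 0.18 and -0.03, and those of all genes lie at 0.00 and -0.00.

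A further 146 genes of the pathway were read in 7 lists. Above the floor were 123, with a median of 0.00, 12 of them at least 1.2-fold higher and 3 as much lower, 12.2% in either direction against 13.7% of all genes above the floor. Raising low readings to the floor, a setting chosen after the data were seen, left 9 higher and 3 lower. Of 25 other Nrf2 targets above the floor 16 were above 0, with a median of 0.02, 3 past 1.2-fold higher and 1 lower. Of all genes above the floor 48.5% were above 0, 7.2% at least 1.2-fold higher and 6.54% as much lower. Ptgr1, a reductase of reactive lipid aldehydes and prostaglandins, read 6.41 and 6.93, 1.44-fold higher. Akr1b8, an aldo-keto reductase, read 5.38 in the control, below the floor, and 6.17 after irradiation, 1.08-fold higher against the floor. The aldehyde oxidase gene Aox1 was higher by 0.27, and Gstm3, a glutathione transferase, differed by -0.30. Hmox1, the inducible heme oxygenase often used with Nqo1 to read Nrf2 activity, was at 0.21 and did not reach 1.2-fold. Among 13 partners and regulators of Nrf2, Maff, a small Maf protein, was the 1 past 1.2-fold, at 0.34. Bach2, a relative of the repressor that competes with Nrf2, was at -0.23, and Bach1, that repressor, at -0.12.

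Genes that turn over or transport glutathione and its building blocks lay around a median of -0.06 (23 genes), and 3 passed 1.2-fold upward and 1 downward. Chac1, which degrades glutathione, read 8.10 and 8.62, 1.44-fold higher. Slc3a1, part of the cystine carrier of epithelia, read 9.50 and 10.00, 1.42-fold higher. Dpep1, a dipeptidase that splits cysteinyl-glycine, was higher by 0.42. Gpx6, a peroxidase best known from olfactory tissue, read 7.11 and 6.31, a difference of -0.80. Other NADPH enzymes had 3 of 14 above 0, against 48.5% of all genes above the floor, and a median of -0.07. The folate enzyme gene Mthfd2 was the 1 past 1.2-fold, from below the floor and 1.01-fold higher against it. Sources of superoxide and peroxide had the highest median of the 7 lists, 0.17 for 13 genes, and 3 passed 1.2-fold upward and 0 downward, where 7.2% and 6.54% of all genes did. Against the floor 2 of them passed. The 3 were Xdh, which encodes xanthine oxidoreductase, at 0.28, Ncf4, a subunit of the phagocyte oxidase, at 0.36 and Duox2, an epithelial oxidase, at 0.37 from below the floor and 1.13-fold higher against it.

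Beside these values, markers of several cell types differed between the arrays. For the counts that follow, 7.2% of all genes above the floor were at least 1.2-fold higher and 6.54% as much lower. In whole tissue, fewer cells of a type and less RNA per cell cannot be told apart. The 11 hepatocyte markers centred on -0.00 with 0 past 1.2-fold, and their summed linear signal was 85204 in the control and 85824 after irradiation. Bile duct markers were at least 1.2-fold higher in 6 of the 7 above the floor, with a summed signal over those 7 of 737 and 2117, and Cftr, Tspan8 and Slc5a1 were below the floor on both arrays. Pancreas and gut epithelium markers were that much higher in 6 of 9, or 5 against the floor. Their summed signal over the 9 was 2142 in the control and 4950 after irradiation. Of the 9, Reg1, Dmbt1, Vil1 and Cdx2 reached the floor only on the irradiated array, which tilts these sums toward it. Cpa1 and Prss2 were below the floor on both arrays, and over all 11 with a probe set the sums were 2224 and 5031. The markers were mixed, with Dmbt1 from 5.17 to 10.83 and Reg1 from 4.35 to 8.18. Vil1 was at 0.28, Cdx2 at 0.08, Cela1 at -0.02 and Fabp2 at -0.16. Smooth muscle and stellate markers were at least 1.2-fold higher in 6 of 11, with sums of 7264 and 9525. Markers of macrophages, which express the phagocyte oxidase, were so in 5 of 12, with sums of 7141 and 8512. Erythroid markers above the floor numbered 5, with 1 higher and 1 lower, and sums over the 5 of 1542 and 1648. Endothelial markers had 0 of 12 past 1.2-fold, and 10 of 12 neutrophil markers were below the floor on both arrays. The part of these cell types in the values of Mt2, Gclc, Slc3a1, Duox2 and Ncf4 was not tested.

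**Figure D4:**
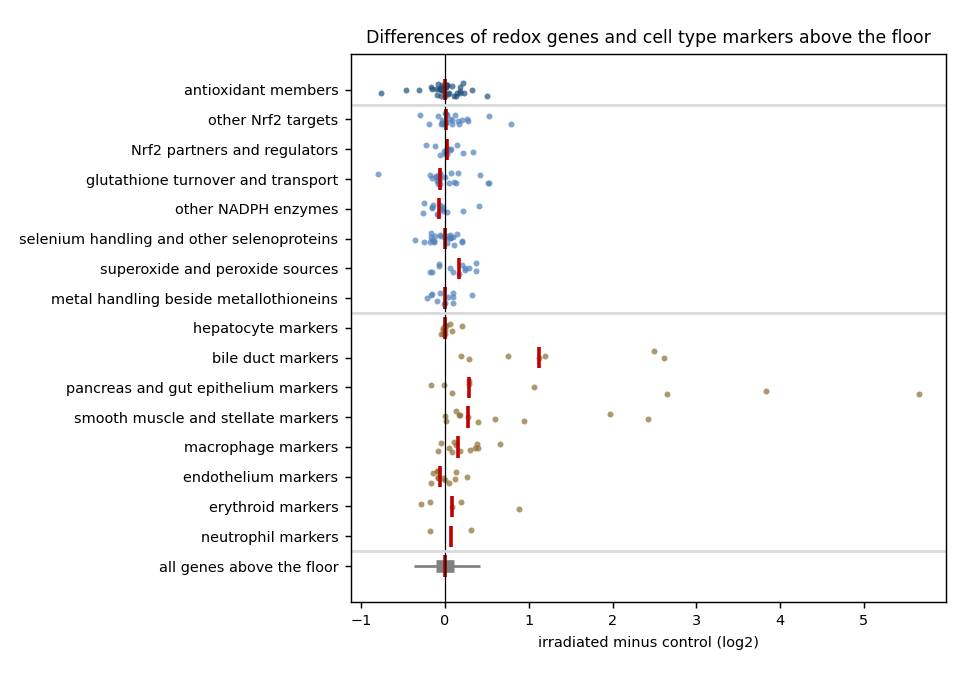
Difference between the arrays (log2) for genes above the floor in the antioxidant list, the 7 other redox lists and 8 lists of cell type markers, 1 point per gene with the median as a red line; the bottom row gives the median, 25th to 75th percentile and central 95% of all genes above the floor. The antioxidant members lie between -0.77 and 0.50 around a median of 0.00, and the bile duct markers have a median of 1.12.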

How the data were processed

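Liver total RNA, 300 ng per array, was converted to biotin-labelled cDNA for 1 Affymetrix whole-transcript array per group, per the labels. The deposited values were log2-scale RMA output of Affymetrix Expression Console 1.3.1, per the submitters' processing notes. RMA corrects background, normalizes arrays to each other and summarises probes, so a difference in total RNA per cell is not visible. No header states the log base, and values from 1.46 to 13.9 were taken as log2, on which all folds rest. The sources used here name no genome build for the array. Of 41345 probe sets, 23521 had 1 symbol in GEO's platform annotation, which can be old. Differences and counts were computed with pandas 2.3.3 in Python 3.11.15, and the code was run on simulated data. That check used 1.5-fold and planted changes larger than any member difference, so it does not bear on the counts at 1.2-fold. Sizes of 1.2-fold, 1.5-fold and 2-fold replaced a test. Alternatives changed the floor, the scaling (lowess with statsmodels 0.14.6), the probe set choice, the offset and the size. Every member was accounted for. Of each further list of pathway genes, up to 4 genes above the floor with the largest differences could be named. Bach1, Hmox1, Cela1, Cdx2, Fabp2, Vil1 and the markers below the floor were named outside this rule, after their values were seen. Members, lists and motifs were chosen with earlier results of these data known.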

Additional observations from a re-analysis of the deposited data

How the results depend on the processing

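No paired analysis was possible because there was only 1 array for each group. The counts at 1.2-fold depend on the size chosen. At 1.5-fold 0 members were higher and 1 was lower, and at 2-fold 0 were higher and 0 were lower. Under the 9 other settings the count of higher members was 2 throughout, and that of lower members was 3, or 2 with the floor at the 75th percentile or with 32 added on the linear scale. Of 259 member differences recomputed under 7 settings, 256 moved by under 0.05. The other 3 were Glrx3 with 32 added (-0.25) and Glrx5 (-0.11) and Keap1 (-0.07) averaged over their probe sets. Gss, Sod2, Gpx1, Gpx8 and Keap1, all near 0, changed sign under at least 1 setting. These are reruns of the same arrays and say nothing about the spread between animals.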

Other observations

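Members grouped by compartment, a grouping made after their values were seen, gave the following values. The 6 mitochondrial members Sod2, Txn2, Txnrd2, Prdx3, Glrx2 and Glrx5 had a median difference of -0.05 and ran from -0.17 to 0.15. Their 5 cytosolic counterparts Sod1, Txn1, Txnrd1, Prdx2 and Glrx had a median of 0.04 and ran from -0.04 to 0.18. Glrx3, described above as cytosolic, was placed in neither class and was 1.24-fold lower, at -0.31. No member placed in either class reached 1.2-fold, and the classes were not tested against each other. Selenoprotein members, which carry selenocysteine at the active site, had a median of 0.01 over the 6 above the floor. The 23 further genes of selenium handling and selenoproteins had a median of 0.00, with 0 at least 1.2-fold higher and 1 lower. That gene was Selenoh, a nuclear selenoprotein, which read 6.71 in the control and 6.36 after irradiation. The 12 further genes of metal handling also had a median of -0.00, and Steap4, a metalloreductase, was the 1 past 1.2-fold, at 0.32. Mtf1, which encodes the factor that binds metal response elements, differed by -0.22.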
